A study of Mus musculus with 18 samples.

Results

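Transcripts of the lipopolysaccharide (LPS) receptor and of the first proteins that relay its signal were followed in 3 macrophage populations of the inflamed mouse lung. The set comprised the 10 genes Tlr4, Ly96, Cd14, Myd88, Tirap, Ticam1, Ticam2, Irak4, Irak2 and Irak3, taken by name from the 21254 genes of the count table. All 10 passed the filter on low counts, with 15811 genes tested in all. Bulk RNA-seq was done on cells sorted from C57BL/6 lungs 24 h after nebulization of Pseudomonas aeruginosa LPS, with 12.5 mg in 5 ml of PBS given over 15 min. Monocyte-derived macrophages (moMs) were sorted as CD45+ CD11b+ MHC-II- Ly6C+ cells. Transitional interstitial macrophages (tnsIMs) were MHC-II+ Ly6C+, and mature interstitial macrophages (matIMs) were MHC-II+ Ly6C-, within the same CD45+ CD11b+ cells. Each population came from WT mice (Ez+/+ with Cx3cr1 Cre) and from Ezr-KOm mice (Ez fl/fl with Cx3cr1 Cre), with 3 libraries per group and 18 in all. The WT mice therefore carried the Cre as well, and every mouse had received LPS. Cre was driven by the Cx3cr1 promoter, which is also active to a low degree outside monocytes and macrophages.

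LPS, a glycolipid of the outer membrane of gram-negative bacteria, is passed by CD14 to MD-2 (encoded by Ly96), which sits on the ectodomain of Toll-like receptor 4 (TLR4) and completes the receptor. At the plasma membrane TLR4 recruits TIRAP and MyD88, and MyD88 assembles IRAK4 and IRAK2 into a kinase complex that leads to NF-kB and inflammatory cytokines. After endocytosis TLR4 recruits TRAM (encoded by Ticam2) and TRIF (encoded by Ticam1), a route known for type I interferon. IRAK-M, encoded by Irak3, is known as a brake on the MyD88 route in monocytes and macrophages.

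The promoters of 6 of the 10 genes were matched in RefSeq (GRCm38.p6), as 8 windows that run up to the transcription start. Tlr4, Ly96, Cd14 and Ticam2 had no entry. The windows below are shown because Myd88 and Irak4 were both lower in tnsIMs than in moMs, whereas Irak3 was lower in matIMs than in tnsIMs. Each covers the 250 bases before the start, 5′ to 3′ on the strand of the gene, and capitals mark matches to the motifs named after the sequences. The Myd88 window is chr9:119340019-119340268 (minus strand), that of Irak4 is chr15:94543410-94543659 (plus strand), and that of Irak3 is chr10:120201598-120201847 (minus strand).
Myd88: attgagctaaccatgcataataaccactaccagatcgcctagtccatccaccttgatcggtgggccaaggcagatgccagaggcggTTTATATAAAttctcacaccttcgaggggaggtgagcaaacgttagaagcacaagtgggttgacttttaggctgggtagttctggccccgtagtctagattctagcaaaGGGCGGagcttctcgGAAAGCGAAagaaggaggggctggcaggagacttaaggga
Irak4: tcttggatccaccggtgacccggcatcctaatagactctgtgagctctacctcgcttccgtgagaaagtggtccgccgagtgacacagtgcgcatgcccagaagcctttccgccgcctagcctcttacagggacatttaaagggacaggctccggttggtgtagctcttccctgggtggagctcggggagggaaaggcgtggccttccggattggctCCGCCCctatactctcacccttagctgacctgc
Irak3: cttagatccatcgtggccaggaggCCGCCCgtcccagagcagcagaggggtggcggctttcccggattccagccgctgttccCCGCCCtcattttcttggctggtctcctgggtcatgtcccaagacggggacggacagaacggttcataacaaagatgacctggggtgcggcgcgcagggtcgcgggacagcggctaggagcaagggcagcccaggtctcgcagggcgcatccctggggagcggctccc

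The Myd88 window held GAAANNGAA, the core of an interferon-stimulated response element, 40 bases before the start. A GC box (GGGCGG) lay 55 bases before the start, and overlapping TATAAA matches on either strand lay 164 and 160 bases before it. Irak4 had a single GC box 33 bases before the start, and the printed Irak3 window had GC boxes 226 and 168 bases before it. A second Irak3 window, not printed, held the GAAANNGAA motif. On both strands, GGGCGG was present in 32.7% of all 32851 promoter windows of this length, TATAAA in 12.4% and GAAANNGAA in 7.13%. GAGGAA, the core of a PU.1 site, was found in the Ticam1 window and in 23.3% of all windows. None of the 8 windows held GGGANTTTC (NF-kB, 0.941% of all windows), TGANTCA (AP-1, 6.75%) or TTGCNNAA (C/EBP, 9.56%). These matches describe letters only.

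Library depth ranged from 16512783 to 48460995 counts, so every one of the 10 genes was well covered, with between 139 counts (Ticam1) and 362750 counts (Cd14) in a library. In GRCm39, the receptor genes are Tlr4 at chr4:66745821-66848521 (plus strand), Ly96 at chr1:16758275-16779835 (plus strand) and Cd14 at chr18:36858120-36859851 (minus strand). The adaptor genes are Myd88 at chr9:119165000-119170477 (minus strand), Tirap at chr9:35095847-35111587 (minus strand), Ticam1 at chr17:56576319-56583786 (minus strand) and Ticam2 at chr18:46690358-46707600 (minus strand), and the kinase genes are Irak4 at chr15:94441524-94479696 (plus strand), Irak2 at chr6:113615428-113671987 (plus strand) and Irak3 at chr10:119977553-120038035 (minus strand). Levels are given as CPM, the counts of a gene scaled to the TMM-adjusted total of its library. The deleted gene Ezr lay between 497.3 and 741.3 CPM in the 9 WT libraries and between 93.85 and 282.4 CPM in the 9 Ezr-KOm libraries, and no library went against its label. The sort was also visible in the RNA. Ly6c2, which encodes Ly6C, was 469.8 to 487.5 CPM in WT moMs, 109.9 to 288.3 in WT tnsIMs and 33.06 to 69.08 in WT matIMs. The MHC-II gene H2-Ab1 was 1141 to 1548 CPM, 7930 to 18400 and 12520 to 17060 in the same order. Csf1r, the receptor that macrophages depend on, was at 1330 CPM or more in all 18 libraries. The summed CPM of 10 macrophage and monocyte genes was 26000 to 32200 in WT moMs, 15500 to 21400 in WT tnsIMs and 9940 to 11500 in WT matIMs, with Lyz2 as the main contributor.

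Markers of other cells differed between the populations too. The sum of 10 dendritic cell genes was 83.6 to 125 CPM in WT moMs, 309 to 557 in WT tnsIMs and 5510 to 7610 in WT matIMs, and 7020 to 7340 in Ezr-KOm matIMs, led by Ccl22 and Ccr7. The sum of 8 epithelial genes, led by Sftpa1 and Sftpc, was 40.2 to 76 CPM in WT moMs, 2760 to 4370 in WT tnsIMs and 312 to 420 in WT matIMs. The sum of 10 neutrophil genes was 782 to 877 CPM in WT moMs, 446 to 653 in WT tnsIMs and 262 to 332 in WT matIMs, with Csf3r and Mmp8 as its most abundant genes. Gene by gene the list ran the other way, with 5 of 10 genes higher and 1 (Mmp8) lower in WT tnsIMs than in moMs (median log2 fold change 2.25), and 4 higher and 2 (Csf3r and Mmp8) lower in WT matIMs than in moMs (median 1.86). Ly6g, which defines neutrophils, was at 0.918 CPM or less in all 18 libraries and at 0 in 1, while S100a8 was at 38.1 to 113 CPM. Among the 8 alveolar macrophage genes, Chil3 took most of the sum, which was 5290 to 6600 CPM in WT moMs and 527 to 669 in WT matIMs. Here too the genes ran against the sum, with 6 of 8 higher and 1 (Chil3) lower in WT matIMs than in moMs (median log2 fold change 1.74). By the study's flow cytometry gating, CD45- cells, CD11c+ cells (alveolar macrophages and dendritic cells) and granulocytes would be removed before these populations are separated, while the labels name only CD45, CD11b, MHC-II and Ly6C for the sort. The part of these cells in the population differences below was not tested, and in bulk samples fewer cells of a type and less RNA per cell cannot be told apart.

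**Figure D1:**
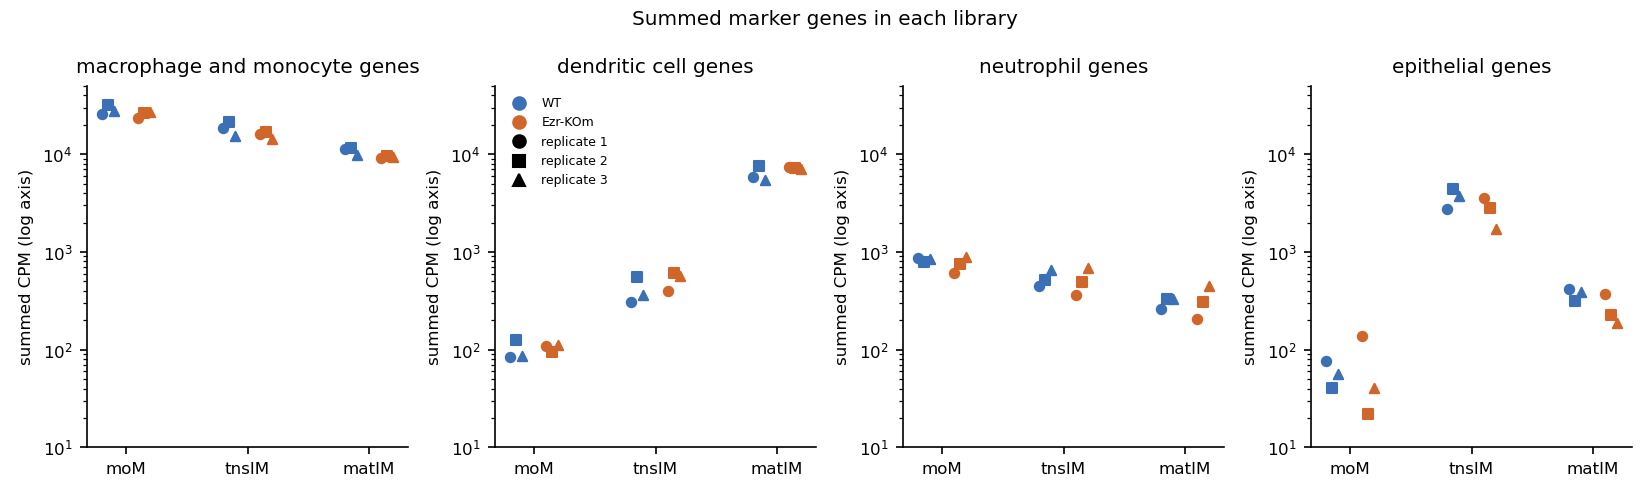
Summed CPM of 4 marker lists (10 macrophage and monocyte genes, 10 dendritic cell genes, 10 neutrophil genes and 8 epithelial genes) in each of the 18 libraries, on a log axis, with the population on the x axis, colour for genotype and shape for the replicate number. Dendritic cell genes are highest in matIMs (5510 to 7610 CPM in WT), and epithelial genes are highest in tnsIMs.

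In the LPS receptor complex, Tlr4 and Cd14 were lowest in matIMs, and Ly96 was lower in tnsIMs than in moMs. Tlr4, the signalling receptor, was 92.85, 97.96 and 96.46 CPM in WT moMs, 58.45, 58.72 and 84.95 CPM in WT tnsIMs and 27.45, 32.29 and 36.14 CPM in WT matIMs. The 3 WT populations did not overlap, and the order was moMs, tnsIMs, matIMs. Compared with moMs, Tlr4 fell in WT matIMs by 1.58 on the log2 scale, or 2.99-fold (SE 0.278, edgeR adjusted p = 0.000315). It also fell between tnsIMs and matIMs (log2 fold change -1.08, SE 0.275, edgeR adjusted p = 0.00886). The log2 fold change of -0.51 from moMs to tnsIMs did not pass the test (SE 0.271, edgeR adjusted p = 0.199).

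In Ezr-KOm mice, Tlr4 was 78.3, 78.86 and 134.8 CPM in moMs, 43.92, 46.11 and 103.8 CPM in tnsIMs and 26.78, 28.59 and 25.11 CPM in matIMs. The third library stood apart in moMs and in tnsIMs, but not in matIMs, and the moM and tnsIM ranges overlapped. Tlr4 was again lower in matIMs, by 1.86 on the log2 scale against moMs (log2 fold change -1.86, edgeR adjusted p = 6.83e-05) and with a log2 fold change of -1.27 against tnsIMs (edgeR adjusted p = 0.00276). Without replicate 3 of the Ezr-KOm mice, an alternative chosen after seeing the data, the second of these was -0.753 (edgeR adjusted p = 0.011). The log2 fold change of Tlr4 from moMs to tnsIMs was then -0.765 (edgeR adjusted p = 0.0155), compared with -0.59 (edgeR adjusted p = 0.168) with all libraries. With all libraries and the replicate number as a block, Tlr4 passed there as well (-0.626, edgeR adjusted p = 0.0355). In the same Ezr-KOm replicate 3, the neutrophil sum was 893 CPM in moMs, 685 in tnsIMs and 450 in matIMs, compared with 611, 364 and 204 CPM in replicate 1 and 749, 494 and 309 CPM in replicate 2. Replicate 2 thus lay above replicate 1 in this sum, whereas the Tlr4 levels of both were close. The sum contains Csf3r, one of the genes most correlated with Tlr4 over the 18 libraries. Ptprc, which encodes CD45, was 2064 CPM in replicate 3 of the Ezr-KOm moMs and 1596 CPM in that of the tnsIMs, the highest of their groups. In Ezr-KOm matIMs Ptprc was also highest in replicate 3 (1134, 1194 and 1204 CPM), where Tlr4 was lowest. Other sums set replicate 3 apart in Ezr-KOm tnsIMs too. The sum of 8 B cell genes was 45.6, 49.1 and 125 CPM. The alveolar macrophage sum was 982, 1220 and 2090 CPM, and the epithelial sum was 3560, 2790 and 1710 CPM. The part of these values in the Tlr4 level was not tested.

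Cd14, the co-receptor that captures LPS, was far more abundant. It was 9175, 9517 and 7579 CPM in WT moMs, 7589, 10510 and 5532 CPM in WT tnsIMs and 4035, 3589 and 2799 CPM in WT matIMs. Cd14 of moMs and tnsIMs overlapped, whereas every matIM library lay below both. It fell 2.27-fold from tnsIMs to matIMs (log2 fold change -1.18, SE 0.192, edgeR adjusted p = 0.000192). From moMs to tnsIMs the log2 fold change was -0.15 (edgeR adjusted p = 0.615). In Ezr-KOm mice Cd14 was 9056, 8762 and 8589 CPM in moMs, 7279, 7237 and 6349 CPM in tnsIMs and 3509, 3385 and 2896 CPM in matIMs. Here the 3 populations were fully separated, and the fall to matIMs was 2.13-fold from tnsIMs (log2 fold change -1.09, SE 0.191, edgeR adjusted p = 0.000412).

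Ly96, which encodes the LPS-binding subunit MD-2, was 23.74, 19.14 and 19.92 CPM in WT moMs, 13.47, 12.24 and 15.01 CPM in WT tnsIMs and 11.93, 16.28 and 11.78 CPM in WT matIMs. Every moM library lay above all others, and tnsIMs and matIMs overlapped. Ly96 fell 1.54-fold from moMs to tnsIMs (log2 fold change -0.62, SE 0.18, edgeR adjusted p = 0.0186) and 1.57-fold from moMs to matIMs (edgeR adjusted p = 0.0116). Leaving out WT moM replicate 1 or WT tnsIM replicate 2 ended the first of these calls (edgeR adjusted p = 0.0789 and 0.0861). In Ezr-KOm mice Ly96 was 23.79, 18.43 and 18.55 CPM in moMs, 16, 12.05 and 12.97 CPM in tnsIMs and 13.41, 16.31 and 17.48 CPM in matIMs. It fell from moMs to tnsIMs there as well (log2 fold change -0.57, edgeR adjusted p = 0.0392), but this call held in 4 of 15 alternatives. The matIM level in Ezr-KOm mice did not differ from that of moMs past the threshold (log2 fold change -0.36, edgeR adjusted p = 0.161).

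**Figure D2:**
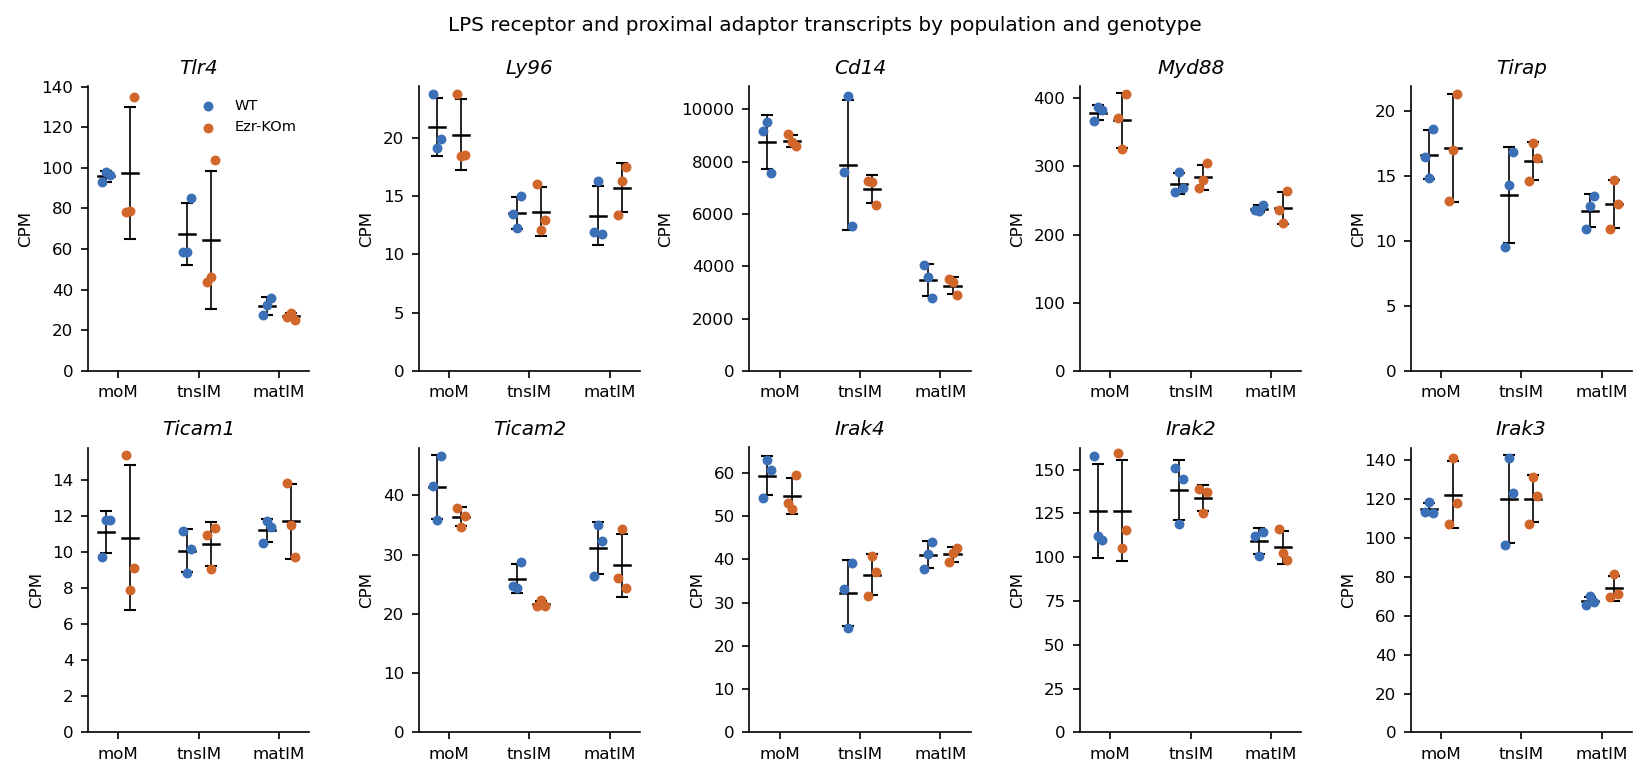
CPM of the 10 genes (y axes, each from 0) in moMs, tnsIMs and matIMs of WT and Ezr-KOm mice, with a point for each of the 3 libraries of a group, a bar for the mean and whiskers for the SD. Tlr4, Cd14 and Irak3 are lowest in matIMs, whereas Ticam2 and Irak4 have their lowest mean in tnsIMs.

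Among the adaptors, Myd88 and Ticam2 were lower in tnsIMs than in moMs, whereas Tirap and Ticam1 passed the test in none of the comparisons between populations. Myd88, the adaptor shared by most Toll-like receptors, was 366.6, 387.8 and 382.4 CPM in WT moMs, 262.5, 291.8 and 268.8 CPM in WT tnsIMs and 236.2, 234.1 and 243.7 CPM in WT matIMs. The groups were separate at both steps. The fall from moMs to tnsIMs was 1.38-fold (log2 fold change -0.47, SE 0.118, edgeR adjusted p = 0.00818), and that from moMs to matIMs was 1.59-fold (edgeR adjusted p = 0.00032). The further log2 fold change of -0.21 between tnsIMs and matIMs did not pass (edgeR adjusted p = 0.283). In Ezr-KOm mice Myd88 was 370.4, 325.6 and 406.9 CPM in moMs, 268.3, 279.7 and 304.4 CPM in tnsIMs and 235.8, 216.7 and 263.6 CPM in matIMs. It fell from moMs to matIMs (log2 fold change -0.62, edgeR adjusted p = 0.000639), and the log2 fold change of -0.37 from moMs to tnsIMs was close to the threshold (edgeR adjusted p = 0.0407) and called in 4 of 15 alternatives.

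Ticam2, which encodes the bridging adaptor TRAM, was 41.56, 35.93 and 46.73 CPM in WT moMs, 24.65, 24.41 and 28.8 CPM in WT tnsIMs and 26.38, 34.99 and 32.23 CPM in WT matIMs. The tnsIM libraries were all below the moM libraries and overlapped those of matIMs. Ticam2 fell 1.59-fold from moMs to tnsIMs in WT mice (log2 fold change -0.67, SE 0.155, edgeR adjusted p = 0.00416). In Ezr-KOm mice it was 37.93, 34.71 and 36.54 CPM in moMs, 21.4, 22.34 and 21.37 CPM in tnsIMs and 25.99, 34.33 and 24.36 CPM in matIMs. It fell 1.68-fold from moMs to tnsIMs (log2 fold change -0.75, SE 0.155, edgeR adjusted p = 0.0027), and every matIM library was above every tnsIM library. That difference between tnsIMs and matIMs (log2 fold change 0.38) did not pass the test (edgeR adjusted p = 0.104). From moMs to matIMs the log2 fold change of Ticam2 was -0.41 in WT (edgeR adjusted p = 0.0607) and -0.37 in Ezr-KOm mice (edgeR adjusted p = 0.0978). With the replicate number as a block, the WT value was -0.413 and passed (edgeR adjusted p = 0.0412).

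Tirap, the sorting adaptor that brings MyD88 to the membrane, lay between 9.553 and 18.66 CPM in the 9 WT libraries and between 10.97 and 21.37 CPM in the 9 Ezr-KOm libraries. Its log2 fold change between moMs and matIMs was -0.43 in WT (edgeR adjusted p = 0.154) and -0.42 in Ezr-KOm mice (edgeR adjusted p = 0.174). With the replicate block the WT value was -0.437 and passed (edgeR adjusted p = 0.046), the only 1 of 14 alternatives in which it did. With the replicate number nested in genotype as the block it did not pass. Ticam1, which encodes TRIF, ranged from 8.814 to 11.77 CPM over the WT libraries and from 7.906 to 15.36 CPM over the Ezr-KOm libraries. The groups of Ticam1 overlapped in every comparison.

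Among the kinases, Irak4 was lower in tnsIMs than in moMs and Irak3 was lower in matIMs than in tnsIMs. Irak4, the kinase that starts the cascade, was 54.26, 63.02 and 60.67 CPM in WT moMs, 33.12, 24.1 and 39.22 CPM in WT tnsIMs and 37.78, 41.27 and 44.04 CPM in WT matIMs. The moM libraries stood above all others. Irak4 fell 1.84-fold from moMs to tnsIMs (log2 fold change -0.88, SE 0.157, edgeR adjusted p = 0.000537) and was 1.45-fold lower in matIMs than in moMs (edgeR adjusted p = 0.0169). The latter call was lost when library totals replaced TMM factors (edgeR adjusted p = 0.082). In Ezr-KOm mice it was 53.03, 51.68 and 59.41 CPM in moMs, 31.5, 40.88 and 37.01 CPM in tnsIMs and 39.3, 41.39 and 42.68 CPM in matIMs. It fell from moMs to tnsIMs (log2 fold change -0.58, SE 0.156, edgeR adjusted p = 0.0156). This call held in 11 of 15 alternatives. It was lost with library totals only, without moM replicate 3, without tnsIM replicate 1 and without replicate 3 of all Ezr-KOm populations, where the edgeR adjusted p was highest (0.148). From moMs to matIMs the log2 fold change of Irak4 in Ezr-KOm mice was -0.41 (edgeR adjusted p = 0.0645), and with the replicate block it passed (edgeR adjusted p = 0.033).

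Irak3, the inhibitory family member, was 113.3, 118.5 and 112.8 CPM in WT moMs, 96.2, 141.2 and 123 CPM in WT tnsIMs and 65.71, 70.06 and 67.37 CPM in WT matIMs. The moM and tnsIM libraries overlapped and all lay above those of matIMs. The fall from tnsIMs to matIMs was 1.77-fold (log2 fold change -0.83, SE 0.144, edgeR adjusted p = 0.000383). In Ezr-KOm mice Irak3 was 107.5, 141.4 and 118.1 CPM in moMs, 107.4, 131.6 and 121.6 CPM in tnsIMs and 69.77, 81.57 and 71.44 CPM in matIMs. The matIM libraries again lay below all others, with a 1.62-fold fall from tnsIMs to matIMs (log2 fold change -0.70, SE 0.144, edgeR adjusted p = 0.00176). Irak2, the kinase that sustains the MyD88 signal, ranged from 100.9 to 157.5 CPM in WT and from 98.1 to 159.4 CPM in Ezr-KOm libraries. Its log2 fold change between tnsIMs and matIMs was -0.34 in both genotypes (edgeR adjusted p = 0.192 in WT and 0.191 in Ezr-KOm mice), and with the replicate block the Ezr-KOm value passed (edgeR adjusted p = 0.0474). That was 1 of 15 alternatives, and with the block nested in genotype it did not pass.

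Counted over the set, 4 of 10 genes fell from moMs to tnsIMs in WT mice (Irak4, Ticam2, Ly96 and Myd88), against 8.61% of all genes tested. From tnsIMs to matIMs 3 fell (Cd14, Tlr4 and Irak3), against 10.2%, and from moMs to matIMs 6 fell (Tlr4, Cd14, Irak3, Myd88, Ly96 and Irak4), against 11.4%. By edgeR and by DESeq2, 0 of the 10 rose in any of these, against 13.0%, 8.32% and 13.4% of all genes. In Ezr-KOm mice the counts of genes that fell were 4 (Ticam2, Irak4, Ly96 and Myd88), 3 (Cd14, Tlr4 and Irak3) and 4 (Cd14, Tlr4, Myd88 and Irak3), against 5.04%, 9.85% and 10.7% of all genes. None rose, against 9.23%, 8.37% and 12.5%. The median log2 fold change of the 10 genes between moMs and matIMs was -0.59 in WT and -0.41 in Ezr-KOm mice, where the median over all genes was 0.01 in both. The count of 4 in the Ezr-KOm comparison of tnsIMs with moMs was the least stable, with 1 gene (Ticam2) called when moM replicate 3 was left out, and 2 when moM replicate 1, tnsIM replicate 1 or tnsIM replicate 2 was.

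**Figure D3:**
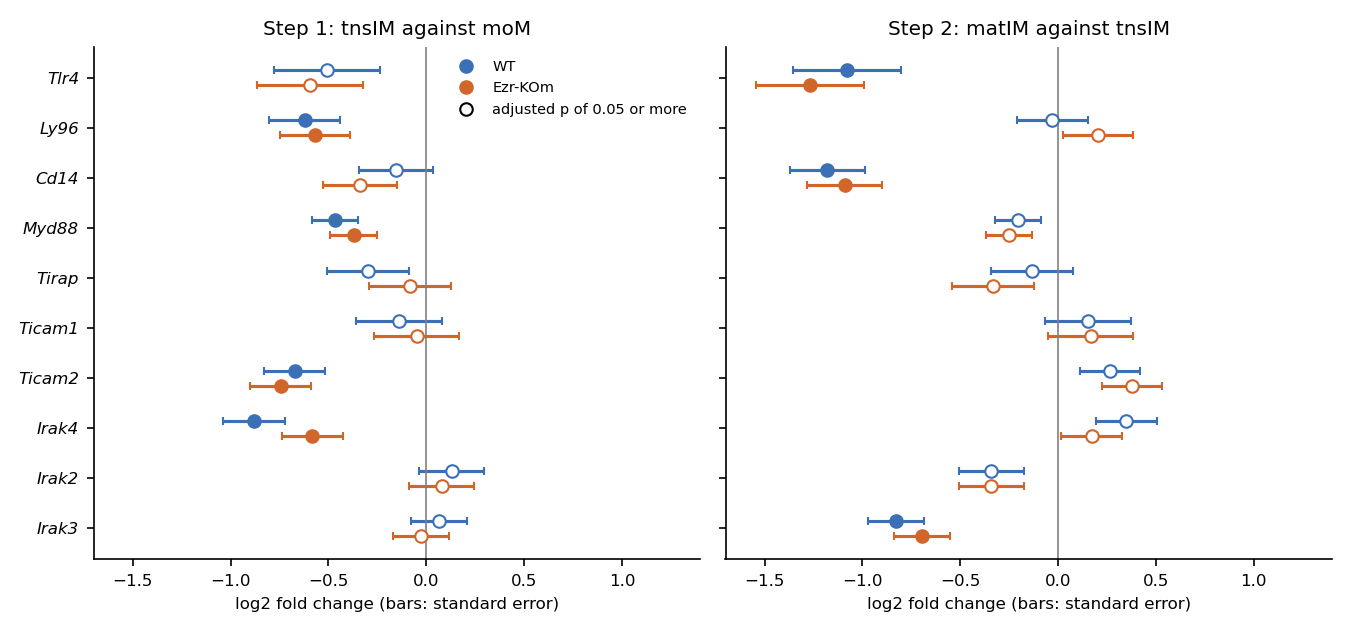
Log2 fold change (x axis) of the 10 genes from moMs to tnsIMs (left) and from tnsIMs to matIMs (right) in WT and Ezr-KOm mice, with bars for the standard error and filled points for an edgeR adjusted p under 0.05. Irak4, Ticam2, Ly96 and Myd88 fell in the left panel, and Tlr4, Cd14 and Irak3 in the right panel.

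Whether the steps from moM to tnsIM and from tnsIM to matIM differed was tested directly, in a comparison added after the data were seen, by setting tnsIMs against the midpoint of moMs and matIMs on the log2 scale. The populations were sorted at a single time, so the steps are differences between cell populations and not a course in time. In WT mice Cd14 (log2 difference 0.51, SE 0.161, edgeR adjusted p = 0.0376) and Irak3 (0.45, SE 0.122, edgeR adjusted p = 0.0174) lay above the midpoint. Irak4 (-0.62, SE 0.139, edgeR adjusted p = 0.00423) and Ticam2 (-0.47, SE 0.136, edgeR adjusted p = 0.0244) lay below it. These are 2 of 10 genes in each direction, against 10.1% of all genes above and 4.55% below. Tlr4, Ly96 and Myd88 did not pass (edgeR adjusted p = 0.479, 0.246 and 0.458), so their drop was not shown to belong to a particular step. In Ezr-KOm mice Ticam2 alone passed (log2 difference -0.56, SE 0.136, edgeR adjusted p = 0.00904), with 0 genes above, against 8.06%, and 1 below, against 2.90% of all genes. With the replicate block, Cd14, Irak3 and Irak4 also passed there (edgeR adjusted p = 0.0412, 0.0153 and 0.0423), and without Ezr-KOm replicate 3 none did. In WT mice the 4 calls went down to 1 (Irak4) without tnsIM replicate 2, and to 2 without moM replicate 3, tnsIM replicate 1, matIM replicate 2 or matIM replicate 3.

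Loss of ezrin had no called effect on these transcripts. Ezrin links the plasma membrane to cortical actin, and the study compared both genotypes in each population. Ezr reads were reduced but not absent in Ezr-KOm mice. The mean was 231.5 against 531.3 CPM in WT moMs, 190.8 against 586.2 in WT tnsIMs and 134.9 against 661.5 in WT matIMs. By edgeR, 0 of 10 genes differed between Ezr-KOm and WT mice in moMs, tnsIMs or matIMs, against 0.171%, 0.164% and 0.152% of all genes tested. At an unadjusted edgeR p under 0.05 the count was also 0 in each population, against 592, 512 and 607 of all 15811 genes. DESeq2 called 0 of the 10. The threshold used in the study (unadjusted p under 0.05 with a log2 fold change above 0.75 in size) was met by 0 of 10 genes, against 2.51%, 1.83% and 2.40% of all genes. The 30 log2 fold changes ran from -0.26 to 0.26. Their 95% confidence intervals reached from -0.83 at the lowest to 0.70 at the highest, and 29 of the 30 intervals lay within 0.75 on either side of 0. The exception was Tlr4 in matIMs, with 31.96 ± 4.36 CPM in WT and 26.83 ± 1.74 CPM in Ezr-KOm mice (SD, n = 3) and a log2 fold change of -0.25 with an interval of -0.83 to 0.32.

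**Figure D4:**
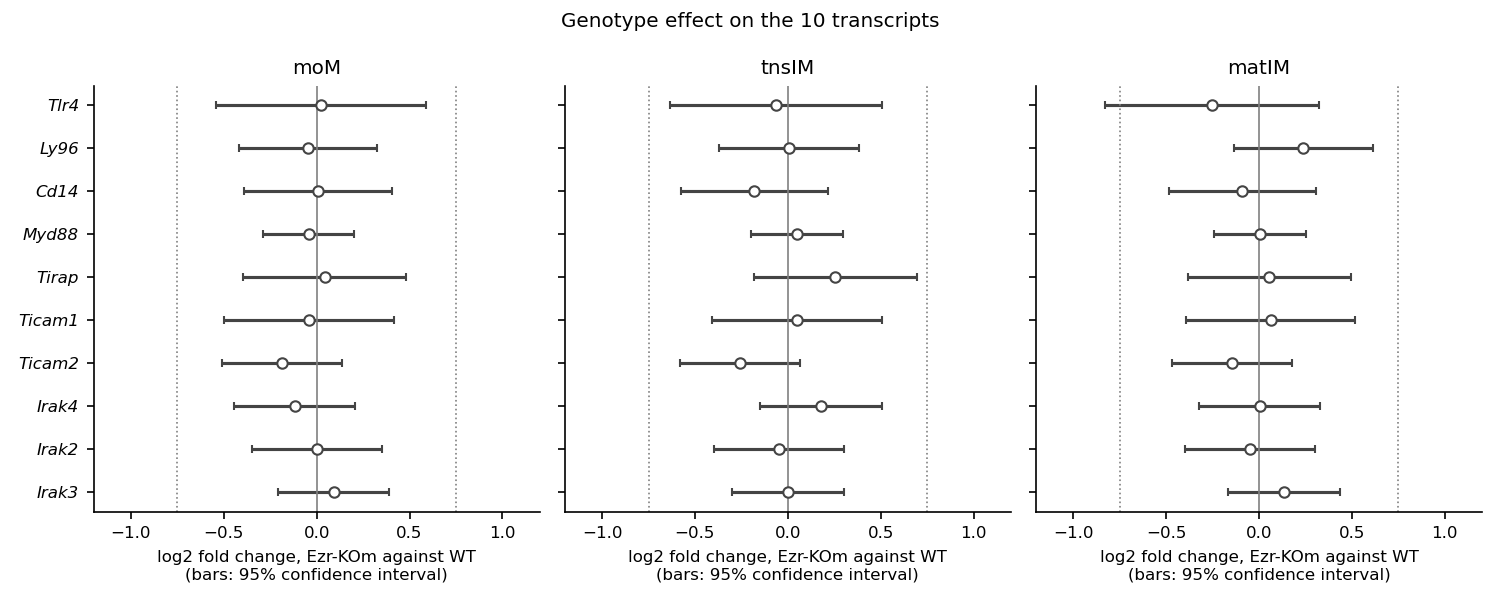
Log2 fold change of the 10 genes in Ezr-KOm against WT mice (x axis) in moMs, tnsIMs and matIMs, with bars for the 95% confidence interval and dotted lines at 0.75 on either side of 0. All 30 intervals include 0, and only that of Tlr4 in matIMs crosses a dotted line.

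Ticam2 had the smallest unadjusted p of the 30 (0.111, edgeR). Ezr-KOm against WT, its log2 values were -0.19 (moMs), -0.26 (tnsIMs) and -0.14 (matIMs). The WT and Ezr-KOm libraries did not overlap in tnsIMs (24.41 to 28.8 CPM against 21.37 to 22.34 CPM). This was the 1 pair of groups without overlap among 30, where 5.81% of all genes did not overlap in tnsIMs, and its edgeR adjusted p was 1. Without Ezr-KOm replicate 3, the Tlr4 log2 fold changes between genotypes were -0.29 (moMs), -0.544 (tnsIMs) and -0.194 (matIMs), with an edgeR adjusted p of 0.945 in tnsIMs and 1 in the others. A difference between the genotypes in the steps between populations (interaction) was called for 0 of 10 genes, and for 0% of all genes tested, by edgeR and by DESeq2. At an unadjusted p under 0.05 edgeR gave 0 of the 10 genes, and 233, 183 and 268 of all genes for the steps from moM to tnsIM, tnsIM to matIM and moM to matIM.

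Levels of different genes were compared per kb of exon, with all annotated exons of a gene merged (Gencode M39 annotation of GRCm39). The order of genes depends on this length. On this scale Cd14 was the highest of the 10 genes in all 6 groups, with a mean of 5056 CPM per kb in WT moMs and 2006 in WT matIMs. Myd88 was second in every group (97.5 CPM per kb in WT moMs and 61.2 in WT matIMs) and Tirap was the lowest (2.46 and 1.83). Ly96 exceeded Tlr4, the receptor with which its product pairs, in every population of WT mice. The mean was 16.9 against 13.7 CPM per kb in moMs and 10.8 against 4.56 in matIMs, while in tnsIMs (10.98 against 9.612) the libraries overlapped. The merged exons were 1236 bases for Ly96 and 7009 for Tlr4. Without division by length these orders were reversed. In WT moMs the mean was 20.94 CPM for Ly96 against 95.76 for Tlr4, and 16.66 for Tirap against 11.09 for Ticam1. The kinases Irak2 and Irak3 had similar levels in WT moMs (21.0 and 20.3 CPM per kb), with overlapping libraries, and in WT matIMs Irak2 was at 18.1 and Irak3 at 12.0. TRAM and TRIF transcripts were both low, at 7.15 and 3.71 CPM per kb in WT moMs.

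The 10 genes did not vary as a block across the 18 libraries, which share the 3 populations, so the following correlations are descriptions. On log2 CPM the highest Pearson correlations within the set were between Cd14 and Irak3 (0.88), Tlr4 and Myd88 (0.871) and Tlr4 and Cd14 (0.801). Ticam2 and Irak4 followed each other (0.789), with Ly96 close to both (0.727 and 0.711). Ticam2 and Irak3 were unrelated (0.04), and so were Irak3 and Irak4 (0.08). Predicted genes (symbols starting with Gm and a digit, or ending in Rik) were left out of the next ranking. Among the other genes tested, the 5 nearest to Tlr4 were Itgal (0.964), Ccr1 (0.955), Csf3r (0.954), Slc31a1 (0.952) and Pdcd6ip (0.941). Those nearest to Cd14 were Lrpap1 (0.982), Ccl2 (0.98), Ninj1 (0.979), Ctsb (0.973) and Ddx28 (0.966). Csf3r, the G-CSF receptor, belongs to the neutrophil list above, where it ranged from 93 to 421 CPM. Ccl2 encodes a monocyte attractant and Ccr1 and Itgal encode a chemokine receptor and an integrin of leukocytes.

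Genes around the receptor were mixed. Of 9 genes for LPS delivery, receptor folding and endocytosis, 2 rose and 3 fell from moMs to matIMs in WT mice, against 13.4% and 11.4% of all genes tested. In Ezr-KOm mice 1 rose and 3 fell, against 12.5% and 10.7%. Lbp, whose product hands LPS to CD14, was 8.483, 10.86 and 7.402 CPM in WT moMs and 0.887, 0.854 and 0.559 CPM in WT matIMs, an 11.6-fold fall (edgeR adjusted p = 3.28e-07). Against WT moMs, Plcg2 fell in WT matIMs (log2 fold change -0.57, edgeR adjusted p = 0.00348) and in WT tnsIMs (log2 fold change -0.62, edgeR adjusted p = 0.00242), and Syk fell in WT tnsIMs (log2 fold change -0.53, edgeR adjusted p = 0.0193). Both act in the CD14-dependent uptake of TLR4. Cd36, a scavenger receptor, rose in WT mice 2.6-fold from moMs to tnsIMs (edgeR adjusted p = 0.00016) and 1.61-fold from moMs to matIMs (edgeR adjusted p = 0.023). Hsp90b1, the chaperone needed to fold Toll-like receptors, rose 1.33-fold from moMs to matIMs in WT mice (edgeR adjusted p = 0.0174). In Ezr-KOm mice the Hsp90b1 libraries overlapped, with 429.5 to 453.3 CPM in moMs and 443 to 540.2 CPM in matIMs.

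Below the receptor, 0 of 14 genes of the MyD88 route rose in WT tnsIMs by edgeR and 4 fell. The shares of all genes were 13.0% and 8.61%. An unadjusted edgeR p under 0.05 was reached by 6 of the 14, against 5373 of all 15811 genes. In Ezr-KOm tnsIMs 0 rose and 1 fell, against 9.23% and 5.04%. Here 5 had an unadjusted edgeR p under 0.05, against 4233 of all 15811 genes. In WT mice, Ikbkb, which encodes a kinase of the NF-kB pathway, fell 1.8-fold (edgeR adjusted p = 0.000724) and Tab2, an adaptor of TAK1, 1.67-fold (edgeR adjusted p = 0.00537). In WT matIMs, 2 of the 14 were below moMs, a share near the 11.4% of all genes. They were Ikbkb (log2 fold change -0.47, edgeR adjusted p = 0.0339) and the ubiquitin ligase gene Peli2 (log2 fold change -1.04, edgeR adjusted p = 0.00264). In Ezr-KOm matIMs 1 of the 14 was below moMs, against 10.7% of all genes. Of 8 genes of the TRIF route, 1 fell in WT tnsIMs (Ripk1, log2 fold change -0.66, edgeR adjusted p = 0.00135), a share near the 8.61% of all genes. From moMs to matIMs 3 of the 8 fell and 1 rose in both genotypes. The shares of all genes were 11.4% and 13.4% in WT mice and 10.7% and 12.5% in Ezr-KOm mice. The share that rose was thus near that of all genes. Among those that fell in WT mice were Ikbke (2.19-fold lower, edgeR adjusted p = 6.05e-05) and Azi2 (1.64-fold lower, edgeR adjusted p = 0.00113). The gene that rose there was Tank (1.4-fold higher, edgeR adjusted p = 0.0127).

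Of 14 tested genes for inhibitors of TLR4 signalling, 4 fell and 2 rose from moMs to matIMs in WT mice, against 11.4% and 13.4% of all genes, so the share that rose was near that of all genes. In Ezr-KOm mice 5 fell and 2 rose, against 10.7% and 12.5% of all genes, so the share that rose was again near that of all genes. Dok3, an adaptor that dampens the receptor, was 184.9, 178.4 and 217.4 CPM in WT moMs and 56.62, 54.85 and 68 CPM in WT matIMs, a 3.23-fold fall (edgeR adjusted p = 2.05e-07). Ly86, the partner of the TLR4 homolog RP105, fell 1.58-fold in WT mice (edgeR adjusted p = 0.00648). The 2 that rose were Sigirr and Il1rl1, which encode receptors of the interleukin-1 receptor family. Sigirr was 10.87, 11.93 and 12.8 CPM in WT moMs and 20.04, 21.06 and 20.12 CPM in WT matIMs (1.72-fold, edgeR adjusted p = 0.0163). Il1rl1 was 0.228, 0.290 and 0.669 CPM in WT moMs and 3.547, 10.68 and 9.837 CPM in WT matIMs (log2 fold change 4.29, SE 0.652, edgeR adjusted p = 7.45e-05), from 4 to 17 counts a library in moMs. From moMs to tnsIMs in WT mice, 2 fell and 1 rose, against 8.61% and 13.0% of all genes. Ly86 fell 1.72-fold and Dok3 1.58-fold (edgeR adjusted p = 0.00242 and 0.00447). Tnip1, which restrains NF-kB, rose 1.52-fold (edgeR adjusted p = 0.00306). Between genotypes, 0 genes of these 4 lists passed the edgeR test in any population, and 1 (in the MyD88 list, in matIMs) had an unadjusted p under 0.05. Of all 15811 genes, 607 had such a p in matIMs.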

How the data were processed

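Cells were sorted from mouse lungs 24 h after LPS, and full-length cDNA libraries were sequenced as read pairs. The deposited values are raw counts per gene, which the authors made with STAR 2.7.9a on GRCm39 without normalization; edgeR and FastQC are also named in the submitters' processing notes. The strand column used is not given in the sources used here, so how reads in overlapping genes were counted is not known.

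The counts were fitted with edgeR 4.0.16 (R 4.3.3): TMM factors, filterByExpr, 1 quasi-likelihood model of the 6 groups and 18 libraries, and two-sided F-tests adjusted by Benjamini and Hochberg over 15811 genes, with calls at an adjusted p under 0.05. The fit was tested on simulated data. Total counts were 16512783 to 48460995 (median 24086623). The 18 pairs of replicates differed by more than sampling noise (mean chi-square per gene 21.9 to 96.3). P-values measure the spread between these libraries.

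The 10 genes and the lists were chosen with earlier results of these data known. Named were all 10 genes, the 2 list genes with the smallest p per direction in the WT comparisons of tnsIMs and matIMs with moMs, genes of the macrophage and sort lists, the 2 highest genes of each other marker list used, and the 5 genes most correlated with Tlr4 and Cd14. Predicted genes were left out of the correlated genes. Ly6g was chosen after its values were seen. Same-numbered libraries deviated together, within a population between genotypes (r = 0.102 to 0.316, 9 pairs, against at most 0.0508 for different numbers) and between populations of one genotype (0.0905 to 0.397, 18 pairs, against at most 0.0316). Same-numbered libraries that differed in both gave 0.036 to 0.283, against at most 0.0704. The first was taken as pairing, and the block was the number or, between populations, number and genotype (the nested block). The labels give a replicate number and do not say which libraries came from the same mouse or batch. Alternatives were DESeq2 1.42.0, other scalings, other filters, only the groups compared, the replicate number as a block, and leaving out single libraries. The step comparison and the fit without Ezr-KOm replicate 3 were added after seeing the data. One WT tnsIM title gives no replicate number, and its description gives 3.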

Additional observations from a re-analysis of the deposited data

How the results depend on the processing

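The calls of genotype effects (0 of 10 genes) and of interactions (0 of 10) were the same under every alternative run, and so were the WT count of 3 for matIMs against tnsIMs and the calls of Tlr4, Cd14 and Irak3 in matIMs against either population in both genotypes. The Ezr-KOm count for tnsIMs against moMs (4) was 2 with upper-quartile factors, without a filter, with at least 10 counts in every library or with only the groups compared, and 1 with library totals only; leaving single libraries out gave 1 to 3, and leaving out Ezr-KOm replicate 3 of all populations 2. Against the midpoint, the WT count (4) was 2 with only the groups compared and 1 to 4 with libraries left out. The Ezr-KOm count there (1) was 2 with DESeq2 or upper-quartile factors and 0 to 2 with libraries left out. With the replicate block it was 4, also when nested in genotype. The cause was not tested.

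Of 1640 single-gene values under the alternatives, 1478 kept their direction and call, 44 lost the call, 25 gained it and 93 changed sign. The changes of sign touched 35 of 110 results, of which 0 were called. Among the values quoted, leaving out libraries gave log2 fold changes of Cd14 in tnsIMs, Ezr-KOm against WT, of -0.38 to 0.08, of Cd14 in WT tnsIMs against moMs of -0.39 to 0.067, of Ticam1 in Ezr-KOm matIMs against tnsIMs of -0.016 to 0.29, and of Tlr4 in Ezr-KOm tnsIMs against the midpoint of -0.14 to 0.54.

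Over all genes, DESeq2 called 55, 55 and 52 genes between genotypes in moMs, tnsIMs and matIMs, where edgeR called 27, 26 and 24. The replicate block gave 42 and 38 in moMs and matIMs, and only the groups compared gave 7 in tnsIMs. Leaving out single libraries gave 13 (WT replicate 1) and 15 (Ezr-KOm replicate 1) in tnsIMs, and 15 in matIMs without replicate 3 of either genotype. Without Ezr-KOm replicate 3 of all populations, 16 were called in moMs and 15 in tnsIMs, and 1346 for Ezr-KOm tnsIMs against moMs, where leaving out moM replicate 3 alone gave 1410 (2257 in the fit as reported). Requiring at least 10 counts in every library gave 13 in matIMs, 1760 for WT and 1837 for Ezr-KOm matIMs against tnsIMs (2926 and 2881 in the fit as reported), 1439 for Ezr-KOm tnsIMs against moMs, and 1363 and 970 against the midpoint in WT and Ezr-KOm mice (2312 and 1732). The nested block gave 3403 for Ezr-KOm tnsIMs against moMs and 2669 against the midpoint. With 3 libraries per group, genotype effects within the confidence intervals given were not excluded. Beside the values given with a replicate block, the block changed no other call.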

Other observations

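H2-Ab1 was 11430, 18400 and 7930 CPM in the 3 WT tnsIM libraries, and Cd14 was 7589, 10510 and 5532 CPM in the same libraries. Both were highest in replicate 2 and lowest in replicate 3. The MHC-II gene H2-Aa had the same order (4476, 5591 and 3494 CPM). H2-Eb1, also an MHC-II gene, was highest in replicate 1 (3587, 3186 and 2575 CPM). Irak4 was 33.12, 24.1 and 39.22 CPM in these libraries, lowest in replicate 2.

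C1qa, C1qb and C1qc, which encode the complement component C1q and mark mature macrophages, rose from moMs to matIMs in WT mice. C1qa was 106.2, 79.76 and 89.33 CPM in WT moMs and 306.8, 380.5 and 234.5 CPM in WT matIMs (log2 fold change 1.74, edgeR adjusted p = 7.67e-05). C1qb and C1qc had log2 fold changes of 1.2 and 1.56 (edgeR adjusted p = 0.000546 and 0.000163). Adgre1, which encodes F4/80, had a log2 fold change of -0.49 (edgeR adjusted p = 0.0812). The sum of 7 endothelial genes was 97.4 to 129 CPM in WT moMs, 304 to 508 in WT tnsIMs and 74.7 to 104 in WT matIMs, and that of 6 fibroblast genes was 21.9 to 36.1, 79.5 to 99.6 and 13 to 26 CPM. The sum of 8 B cell genes was 9.05 to 14.1 CPM in WT moMs and 170 to 246 in WT matIMs, and that of 9 T and NK cell genes was 37.4 to 68.3 CPM over all 18 libraries.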
